A study of Mus musculus with 4 samples.

Results

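Frizzled receptors and Wnt pathway effectors were followed in mouse neurospheres and R1 embryonic stem (ES) cells on MG_U74Av2 expression arrays. The 10 genes were Fzd2, Fzd3, Fzd4, Fzd7, Fzd9, Sfrp1, Sfrp2, Ctnnb1, Tcf7l1 and Lef1. Every probe set whose single gene symbol in the platform annotation was one of these names was taken, which gave 15 of 12488 probe sets on the array. The neurosphere array held RNA from floating neural cultures of the E13.5 embryonic telencephalon, kept in DMEM and F12 medium with FGF2, and by its labels the culture also held astrocytes, glia and oligodendrocytes as contaminants. Both embryoid body arrays held R1 cells kept unattached for 48 hours in DMEM with LIF, a cytokine that keeps ES cells undifferentiated, and beta-mercaptoethanol. One of them was titled aggregation and the other suspension, and they carry one sample identifier. The adherent array held R1 cells on gelatin with the same supplements. R1 is 1 established mouse ES line, no group carries a named mutation, and the number of embryos behind the neurospheres is not given in the sources used here. The neurosphere and adherent groups had 1 array each, so no spread could be measured in them.

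Wnt ligands are secreted proteins that bind Frizzled receptors at the cell surface, together with the co-receptors Lrp5 and Lrp6. In the canonical branch, binding halts the breakdown of beta-catenin, which then enters the nucleus and acts through the DNA-binding proteins of the TCF/LEF family. In mouse ES cells Tcf7l1 represses pluripotency genes, and beta-catenin relieves that repression. In the embryonic forebrain Wnt signals pattern the dorsal telencephalon and help keep progenitors dividing.

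Signals are MAS5 intensities, a linear brightness per probe set, scaled so that each array had the same trimmed mean. The neurosphere and aggregation arrays had been deposited on a scale 50.4-fold and 45.6-fold below the suspension array, and the adherent array on that of the suspension array. After scaling, the median signal was 242 in neurospheres, 225 and 236 in the embryoid body arrays and 178 in adherent cells, and the 10th percentile was 33.8 in neurospheres, 29.5 and 33.7 in embryoid bodies and 17.4 in adherent cells. The ratio of 3' to 5' signal of the Gapdh controls was 0.946 in neurospheres, 0.880 and 0.893 in embryoid bodies and 0.804 in adherent cells. Signals near or below the 10th percentile were not told apart from background. Neural progenitor markers, led by Fabp7 and Nes, summed to 50323 in neurospheres, 41867 of it from Fabp7, against 2134 and 2008 in embryoid bodies and 1172 in adherent cells. Of 7 tested 4 rose, 2 of them having passed the signal filter only through neurospheres. Vim (333) and Msi1 (172) in neurospheres lay within the R1 range, and Pax6 (105) was below the median on every array and not tested. Pluripotency markers summed to 8850 in neurospheres, against 73142 and 85428 in embryoid bodies and 73615 in adherent cells, led by Dppa5a and Pou5f1, and 10 of 12 fell in neurospheres. Astrocyte markers summed to 19204 in neurospheres, 12719 of it from Mt3, against 1773 and 1945 in embryoid bodies and 1271 in adherent cells. Of 6 tested 3 rose (Aldoc, Mt3 and Sparcl1, the last having passed the filter only through neurospheres), while Gfap had 384 in neurospheres, against 130 and 215 in embryoid bodies and 143 in adherent cells. Of 4 tested oligodendrocyte markers Sox10 rose and Mbp was not called, and their list summed to 2316 in neurospheres, against 910 to 1850 in R1. Neuron markers summed to 8470 in neurospheres, 5991 of it from Tubb3, against 5043 to 6988 in R1. Of 5 tested neuron markers Gap43 rose, having passed the filter only through neurospheres, and Stmn2 fell, with 395 in neurospheres, against 1716 and 1674 in embryoid bodies and 1484 in adherent cells. Mesoderm and endoderm markers, led by Gata4 and Afp, summed to 1380 in neurospheres against 711 to 1107 in R1, and fibroblast markers, led by Col1a2 and Thy1, to 3386 in neurospheres against 1724 to 4595 in R1, with 0 of 2 and 0 of 5 called by limma. At an unadjusted p under 0.05 these lists had 0 and 1. Between embryoid bodies and adherent cells 1 of these markers was called, Col1a2, with 3062 and 3428 in embryoid bodies against 1123 in adherent cells (limma adjusted p = 0.0294). No listed marker was at 0 on any array, and the part of other cells in the results on Wnt genes was not tested. Differences are on the scale of log2(signal + 32), which understates changes of weakly detected genes.

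Promoter windows of 300 bases, from 250 before to 50 after an annotated start, were at hand for 7 of the 10 genes, 11 windows in all, from RefSeq (GRCm38.p6). Fzd2, Fzd3 and Sfrp1 are named only. Shown here are the 3 called genes with a window, Fzd9, Sfrp2 and Tcf7l1, and Fzd7, the receptor gene whose window holds a TCF/LEF word. The windows lie on the minus strand at chr5:135250998-135251297 for Fzd9, on the plus strand at chr3:83766071-83766370 for Sfrp2, on the minus strand at chr6:72788996-72789295 for Tcf7l1, and on the plus strand at chr1:59481897-59482196 for Fzd7. Each is written 5′ to 3′ on the gene's strand, and capitals mark a TCF/LEF or SOX word on either strand. Gene positions given below are from RefSeq on the same build. The Sfrp2 window lies wholly inside the gene span given below, so its start is not the first base of that span. The same holds for the Lef1 window with a TCF/LEF word.
Fzd9: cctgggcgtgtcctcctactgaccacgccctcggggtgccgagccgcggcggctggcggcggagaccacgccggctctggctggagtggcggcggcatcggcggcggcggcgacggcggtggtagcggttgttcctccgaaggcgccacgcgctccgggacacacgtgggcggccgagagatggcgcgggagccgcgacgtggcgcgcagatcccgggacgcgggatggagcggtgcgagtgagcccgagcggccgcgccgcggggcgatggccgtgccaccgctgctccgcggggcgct
Sfrp2: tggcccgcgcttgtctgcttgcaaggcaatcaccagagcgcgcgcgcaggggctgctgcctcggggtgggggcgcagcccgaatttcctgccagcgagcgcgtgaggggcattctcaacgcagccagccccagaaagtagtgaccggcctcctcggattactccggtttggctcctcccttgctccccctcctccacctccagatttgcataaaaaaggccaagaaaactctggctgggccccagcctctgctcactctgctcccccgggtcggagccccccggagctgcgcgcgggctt
Tcf7l1: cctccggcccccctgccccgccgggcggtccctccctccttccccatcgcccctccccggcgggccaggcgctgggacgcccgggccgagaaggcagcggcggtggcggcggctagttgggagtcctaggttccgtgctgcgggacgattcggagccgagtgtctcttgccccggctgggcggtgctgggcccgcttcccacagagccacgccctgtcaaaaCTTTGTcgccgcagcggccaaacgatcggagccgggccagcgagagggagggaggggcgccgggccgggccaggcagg
Fzd7: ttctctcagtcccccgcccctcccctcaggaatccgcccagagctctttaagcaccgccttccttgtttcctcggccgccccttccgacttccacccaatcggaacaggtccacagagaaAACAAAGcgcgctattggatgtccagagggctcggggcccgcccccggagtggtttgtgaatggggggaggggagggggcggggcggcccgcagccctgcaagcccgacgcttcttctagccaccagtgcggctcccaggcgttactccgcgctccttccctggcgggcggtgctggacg
The TCF/LEF word searched on both strands was CTTTG followed by AA, AT, TA or TT, and 16.9% of 32851 windows hold at least 1. Of the 11 windows 2 did: that of Fzd7, with the word starting at -130 from the start site, and 1 of the 4 of Lef1, at -147. The SOX word CTTTGT, which the TCF/LEF forms ending in TA or TT contain, is in 18.7% of windows, and the Tcf7l1 window has it at -28. CpG pairs numbered 53 in the Fzd9 window, 22 in that of Sfrp2, 34 in that of Tcf7l1 and 24 in that of Fzd7, against a median of 7 over all windows. These matches are a description of the letters, and the arrays measured no binding.

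Among the receptors, Fzd9 and Fzd2 passed the test as higher in neurospheres than in R1 cells, while Fzd3, Fzd4 and Fzd7 did not pass it. In limma's test with Benjamini-Hochberg adjustment over 6843 features, where a gene is called at an adjusted p under 0.05, 3 of the 10 genes rose in neurospheres (Fzd9, Fzd2 and Sfrp2), 1 fell (Tcf7l1) and 6 were not called. Over all features, 8.2% were called higher in neurospheres and 11.9% lower, and the median difference was 0.10. The share called higher among the 10 genes was above that of all features and the share called lower close to it, with no test of either, since the genes were chosen with results known. The calls include Fzd9, which passed the signal filter only through neurospheres. With no signal filter, or with no intensity trend, Fzd9 was the 1 gene called higher and Tcf7l1 the 1 called lower. The p-values measure only the spread between the 2 embryoid body arrays, whether technical or due to the culture forms in their titles. Each gene's error came mostly from that spread over features of like intensity, and little from the gene's own 2 values. In such bulk RNA, fewer cells of a type and less RNA per cell cannot be told apart.

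Fzd9, a Frizzled receptor known from the hippocampus and neural precursors of the mouse (gene at chr5:135248938-135251047), had a signal of 1466 in neurospheres, against 75.8 and 171 in the embryoid body arrays (123.5 ± 67.5, SD, n = 2) and 111 in adherent cells. The R1 signals lay below each array's median, and neurospheres stood 8.56-fold above the highest of them. The difference was 3.36 ± 0.64 (SE, limma adjusted p = 8.63e-04), with a 95% confidence interval of 2.02 to 4.71. Fzd9 passed the filter on low signal only through neurospheres.

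Fzd2, a receptor that couples to both the beta-catenin and the calcium branch (chr11:102604431-102608058), had 1051 in neurospheres, against 37.1 and 162 in embryoid bodies (99.7 ± 88.5, SD, n = 2) and 218 in adherent cells. Neurospheres were 4.82-fold above the highest R1 array, and the aggregation array was close to background. The difference was 2.67 ± 0.70 (SE, limma adjusted p = 0.0104), with an interval of 1.20 to 4.14. Against the adherent array alone it was 2.12, and the call was lost (limma adjusted p = 0.0944). Aggregation minus suspension was -1.49 on the log2 scale for this gene, against a median absolute difference of 0.37 over all features.

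The other 3 receptors did not pass the test. Fzd3, which guides axon growth in the mouse brain (chr14:65192441-65262463), had 699 in neurospheres, against 489 and 557 in embryoid bodies and 425 in adherent cells by its s_at probe set. That is above every R1 array, yet the difference of 0.54 ± 0.43 missed the threshold (limma adjusted p = 0.399, interval -0.35 to 1.43). Its other probe set read 181 in neurospheres, against 53.0 and 204 in embryoid bodies and 86.2 in adherent cells, below the array median throughout. Fzd4, the receptor of norrin in retinal vessels (chr7:89404366-89410110), had 260 in neurospheres, against 484 and 654 in embryoid bodies and 375 in adherent cells. Neurospheres were lowest, with a difference of -0.75 ± 0.47 (limma adjusted p = 0.284, interval -1.75 to 0.24). Its 2 further probe sets were at background: 1 lay below the 10th percentile on 3 arrays and the other on all 4. Fzd7, a receptor linked to ES cell self-renewal (chr1:59482147-59486955), had 414 in neurospheres, inside the R1 range of 461 and 307 in embryoid bodies and 368 in adherent cells. Fzd7 differed by 0.14 ± 0.50 (limma adjusted p = 0.870, interval -0.90 to 1.18), so changes of up to about 1 log2 unit either way lie within its error.

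**Figure D1:**
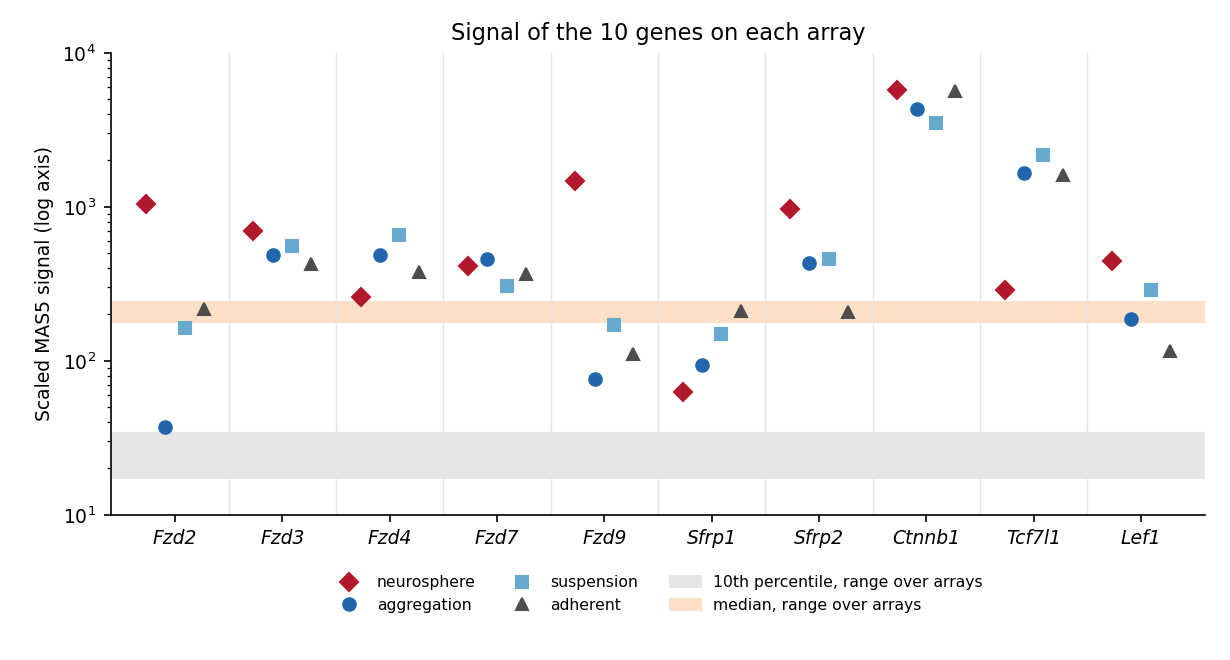
Scaled MAS5 signal (log axis) of the 10 genes on the neurosphere, aggregation, suspension and adherent arrays, 1 point per array and no error bars, with bands for the range of array medians and of 10th percentiles. Neurospheres stand above all R1 points for Fzd9 (1466 against 171 at most), Fzd2, Sfrp2, Fzd3, Lef1 and, by little, Ctnnb1 (5717 against 5682). They stand below all R1 points for Tcf7l1 (286 against at least 1616), Fzd4 and Sfrp1. Over all single-gene probe sets, 35.3% were above every R1 array and 25.8% below.

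Of the 2 secreted antagonists, Sfrp2 was called higher in neurospheres and Sfrp1 was not called. Secreted Frizzled-related proteins carry a Frizzled-like domain and bind Wnts outside the cell. Sfrp2, made by neural progenitors of the embryo (chr3:83765750-83774314), had 963 in neurospheres, against 432 and 457 in embryoid bodies (444.5 ± 17.9, SD, n = 2) and 206 in adherent cells. Neurospheres were 2.11-fold above the highest R1 array, and the difference was 1.56 ± 0.45 (SE, limma adjusted p = 0.0196, interval 0.61 to 2.52). Against embryoid bodies alone it was 1.06, and the call was lost (limma adjusted p = 0.144). Leaving out the aggregation array in a fit of 2 groups gave 1.54 (limma adjusted p = 0.145), and leaving out suspension gave 1.58 (limma adjusted p = 0.113).

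Sfrp1, its close relative (chr8:23411383-23449632), had 63.1 in neurospheres, against 94.1 and 149 in embryoid bodies (121.5 ± 38.7, SD, n = 2) and 210.4 in adherent cells. Neurospheres were lowest and adherent cells highest, but the difference of -1.01 ± 0.86 missed the threshold (limma adjusted p = 0.439, interval -2.81 to 0.80). Only the adherent signal reached its array's median, so the gene was tested through that array alone.

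Ctnnb1, which encodes beta-catenin, the shared effector of the canonical branch and a part of cell junctions (chr9:120933400-120960507), was strongly detected everywhere. Its signal was 5717 in neurospheres, against 4329 and 3484 in embryoid bodies (3906 ± 597, SD, n = 2) and 5682 in the adherent culture. Neurospheres and adherent cells were nearly level, and the difference from R1 was 0.28 ± 0.27 (limma adjusted p = 0.489, interval -0.28 to 0.84).

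Of the nuclear factors, Tcf7l1 fell in neurospheres while Lef1 did not pass the test. Tcf7l1 (chr6:72626371-72789045) had 286 in neurospheres, against 1648 and 2183 in embryoid bodies (1916 ± 379, SD, n = 2) and 1616 in adherent cells. Even the lowest R1 signal was 5.64-fold that of neurospheres. The difference was -2.48 ± 0.34 (SE, limma adjusted p = 2.81e-05), with an interval of -3.19 to -1.78. A second probe set gave 171 in neurospheres, against 1002 and 1392 in embryoid bodies and 1341 in adherent cells, a difference of -2.67 that was also called with every probe set tested on its own (limma adjusted p = 2.27e-05).

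Lef1, a TCF/LEF factor needed for hippocampal development in the mouse (chr3:131110297-131224357), had 448 in neurospheres, against 186 and 288 in embryoid bodies (237 ± 71.9, SD, n = 2) and 116 in adherent cells. Neurospheres were 1.55-fold above the highest R1 array, with a difference of 1.28 ± 0.62 (limma adjusted p = 0.163, interval -0.03 to 2.58). Its other probe set did not share this order, with 36.1 in neurospheres, against 43.1 and 147 in embryoid bodies and 26.4 in adherent cells, all below the median.

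**Figure D2:**
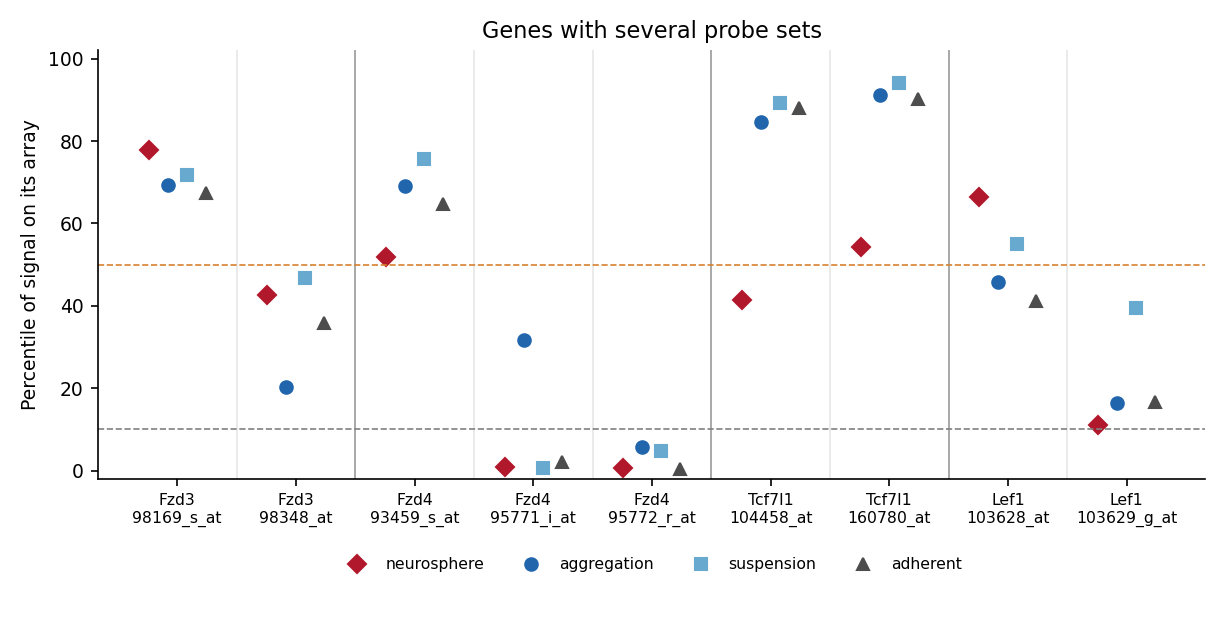
Percentile of signal on its own array for every probe set of the 4 genes with several, 1 point per array, with dashed lines at the median and the 10th percentile. Both Tcf7l1 probe sets place neurospheres below all R1 arrays, whereas the weaker probe sets of Fzd3, Fzd4 and Lef1 do not repeat the order of the brighter ones.

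By position alone, 6 of the 15 probe sets were above every R1 array in neurospheres, 4 were below and 5 lay within the R1 range. Over the 10833 single-gene probe sets these shares were 35.3% above and 25.8% below, so the counts by position are near the background. Against the aggregation array alone, the pair deposited on the same low scale, the difference was 3.80 for Fzd9, 3.97 for Fzd2, 1.10 for Sfrp2 and -2.40 for Tcf7l1, an alternative chosen after seeing the data.

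**Figure D3:**
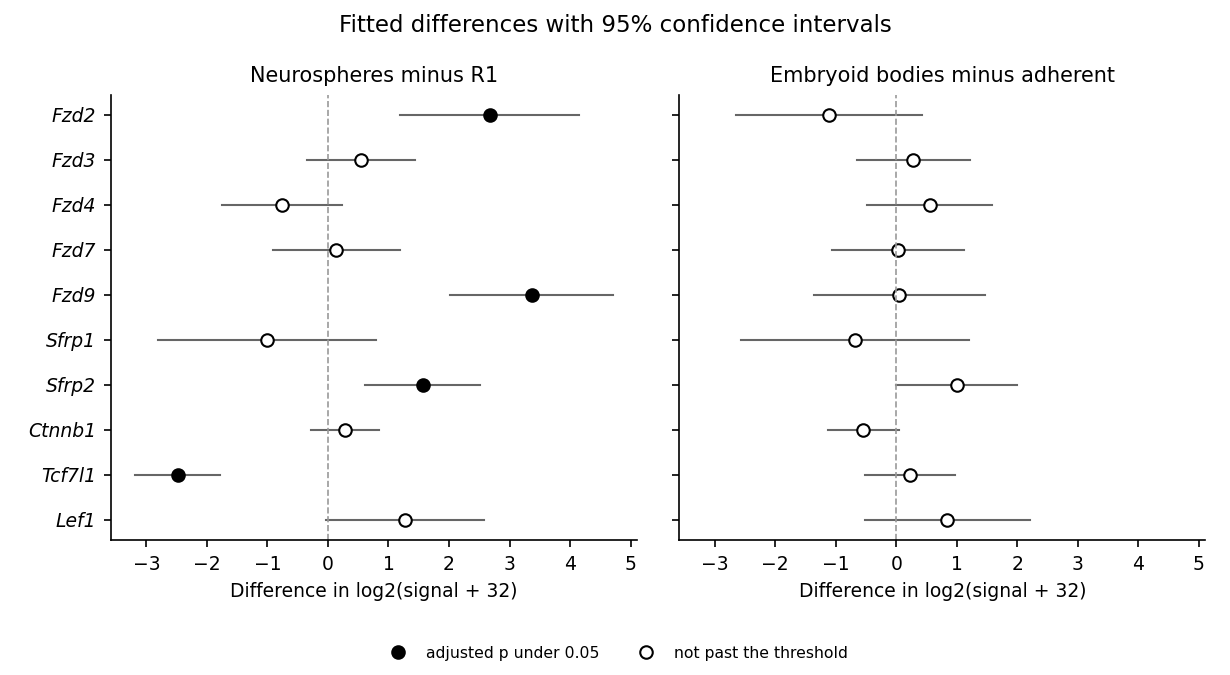
Fitted differences in log2(signal + 32) with 95% confidence intervals for the 10 genes, neurospheres minus R1 on the left and embryoid bodies minus adherent cells on the right, filled where the limma adjusted p was under 0.05. In the first comparison the intervals of Fzd9, Fzd2 and Sfrp2 lie to the right of 0 and that of Tcf7l1 to the left. The intervals of the other genes include 0 there, and no gene is filled in the second.

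The culture form of R1 cells moved none of the 10 genes past the threshold: 0 were called between embryoid bodies and adherent cells by limma, where 0.351% of all features were called and 582 higher and 401 lower ones had an unadjusted p under 0.05. Sfrp2 had the smallest p, with 432 and 457 in embryoid bodies against 206 in adherent cells, a difference of 0.998 ± 0.47 (limma unadjusted p = 0.0495, adjusted p = 0.347). Ctnnb1 followed at -0.55 ± 0.28 (limma adjusted p = 0.381), and with arrays scaled to their medians it was called at -0.91 (limma adjusted p = 0.0486). Differences of Fzd2 (-1.11 ± 0.73), Sfrp1 (-0.68 ± 0.90) and Lef1 (0.84 ± 0.65) had confidence intervals that include 0. Between the 2 arrays deposited on the same high scale, suspension minus adherent was 1.04 for Sfrp2, -0.70 for Ctnnb1 and 1.12 for Lef1, again an alternative chosen after seeing the data. By position, both embryoid body signals were below adherent cells for 3 of the 15 probe sets and above for 8, against 26.7% and 49.3% of all single-gene probe sets.

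Other genes of the pathway came from 7 lists, of which 104 genes were on the array besides the 10 and 67 were tested. Of these 9 rose in neurospheres and 9 fell. Over all features 8.2% were called higher and 11.9% lower, so the count that fell is near the background. The signal filter was passed only through neurospheres by 5 of the 67, 1 of them (Jun) among the 9 that rose, so no median is given for the 67. Of 9 tested ligand and secretion genes 0 were called by limma, 2 having an unadjusted p under 0.05, and 4 of the 9 (Wnt3, Wnt3a, Wnt6 and Ndp) passed the filter only through neurospheres, so no median is given for them. Wnt1, a ligand of the embryonic midbrain, had 546 in neurospheres, against 505 and 673 in embryoid bodies and 116 in adherent cells (0.94, limma adjusted p = 0.193). Wnt7b, a ligand of the developing brain, had 463 in neurospheres, against 439 and 106 in embryoid bodies and 210.2 in adherent cells (0.995, limma adjusted p = 0.317). Among 4 other receptors, Ryk, a Wnt co-receptor, had 1316 in neurospheres, against 537 and 360 in embryoid bodies and 497 in adherent cells, and rose by 1.43 ± 0.42 (limma adjusted p = 0.0202). That call was lost with no signal filter (limma adjusted p = 0.0605), with no intensity trend (0.114), with the adherent array alone and when either embryoid body array was left out. The weaker Ryk probe set, below the median on every array, read 81.2 in neurospheres, against 46.9 and 68.2 in embryoid bodies and 92.2 in adherent cells. Sfrp4 was the 1 other antagonist tested, with 257 in neurospheres, against 56.9 and 83.8 in embryoid bodies and 239 in adherent cells (limma adjusted p = 0.521).

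The list of cytoplasmic genes, which also holds the nuclear co-repressors Ctbp1 and Ctbp2, had 19 tested. Of these 1 rose, Ctbp1 (1.73), and 4 fell: Ctbp2 (-2.55), the junction proteins Jup (-2.39) and Ctnna1 (-1.52), and Dvl2 (-2.30), which relays the Frizzled signal. The shares called over all features were 8.2% higher and 11.9% lower, and with so few genes no share of this list was tested. A second Dvl2 probe set read 360 in neurospheres, against 722 and 312 in embryoid bodies and 75.2 in adherent cells, and the mean of both probe sets gave -0.78 without a call. Among 13 other nuclear genes Tle5 rose, with 5401 in neurospheres, against 855 and 1443 in embryoid bodies and 914 in adherent cells, while Hdac1 (-2.10) and Ruvbl1 (-1.08) fell. Planar polarity and calcium genes had 4 of 11 called, all higher, against 8.2% of all features: Camk2b (3.95), Celsr2 (2.21), Rac1 (0.98) and Rhoa (0.85). Of these Celsr2, Rac1 and Rhoa lost their calls under several of the alternative settings, as did Ruvbl1. The weaker Celsr2 probe set read 299 in neurospheres, against 377 and 39.2 in embryoid bodies and 86.8 in adherent cells. Without the intensity trend, the calls of Jup, Ctnna1, Ctbp1 and Tle5 were lost as well.

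Genes known as targets of beta-catenin moved both ways, with 2 of 11 tested rising and 3 falling, Lef1 counted among the 11, against 8.2% and 11.9% of all features. Ccnd1, the cyclin of the G1 phase, had 6899 in neurospheres, against 522 and 1134 in embryoid bodies and 433 in adherent cells (3.50), although its dimmer probe set differed by only 0.59. Jun had 947 in neurospheres, against 198 and 52.1 in embryoid bodies and 79.5 in adherent cells, a difference of 2.98, and passed the signal filter only through neurospheres. Mycn, a growth regulator that ES cells also express, read 36.1 in neurospheres, near background, against 2210.1 and 2549 in embryoid bodies and 2862 in adherent cells (-5.28). Fgf4 (-2.79) and the gap junction gene Gja1 (-1.39) also fell, Fgf4 being a pluripotency marker as well. The calls of Jun and Gja1 were lost without the intensity trend, and that of Gja1 also without the aggregation array and against embryoid bodies alone, where its difference was -0.84 (limma adjusted p = 0.0646). Axin2, the feedback target most used as a readout, was below the median on every array, with 67.4 in neurospheres, against 70.7 and 123 in embryoid bodies and 120.0 in adherent cells, and was not tested. Between embryoid bodies and adherent cells 0 of the 67 genes were called by limma, 5 higher and 8 lower ones having an unadjusted p under 0.05.

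**Figure D4:**
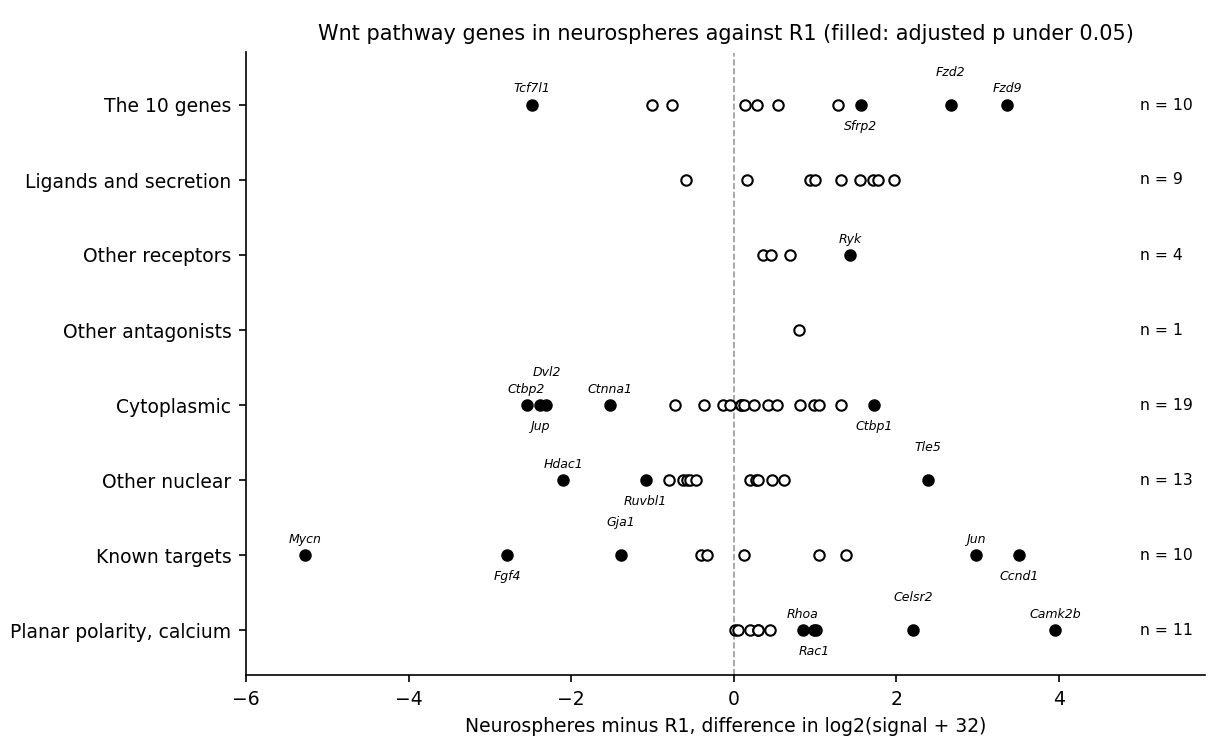
Neurospheres minus R1 in log2(signal + 32) for the 10 genes and for the tested genes of 7 Wnt lists, 1 point per gene, filled and named where the limma adjusted p was under 0.05, with Lef1 shown only in the first row. Called genes lie on both sides of 0, from Mycn at -5.28 to Camk2b at 3.95.

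The genes whose profiles over the 4 arrays were most like each member were found by the root-mean-square difference of gene-centred log2 values. For Fzd9 these were Specc1 (0.12), Hmgcs1 (0.14) and Idi1 (0.16), and for Fzd2 Me1 (0.14), Acadl (0.16) and Pon2 (0.24). Sfrp2 was nearest to Pimreg, Slfn2 and Syn2 (0.02 to 0.06), and Tcf7l1 to Rfx2, Nolc1 and Surf6 (0.05 to 0.09). Lef1 had Lmo1, Trim46 and Tead2, and Ctnnb1 had Rrbp1, Map3k7 and Jtb. The nearest to Fzd3 were Mogs, Shbg and Mlycd, to Fzd4 Aire, Rpl13a and Hba-ps3, to Fzd7 Zmat3, Ubr1 and Cln3, and to Sfrp1 Pdk3, Kdelr3 and Hnrnpl. With 4 arrays such likeness describes these arrays alone.

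**Figure D5:**
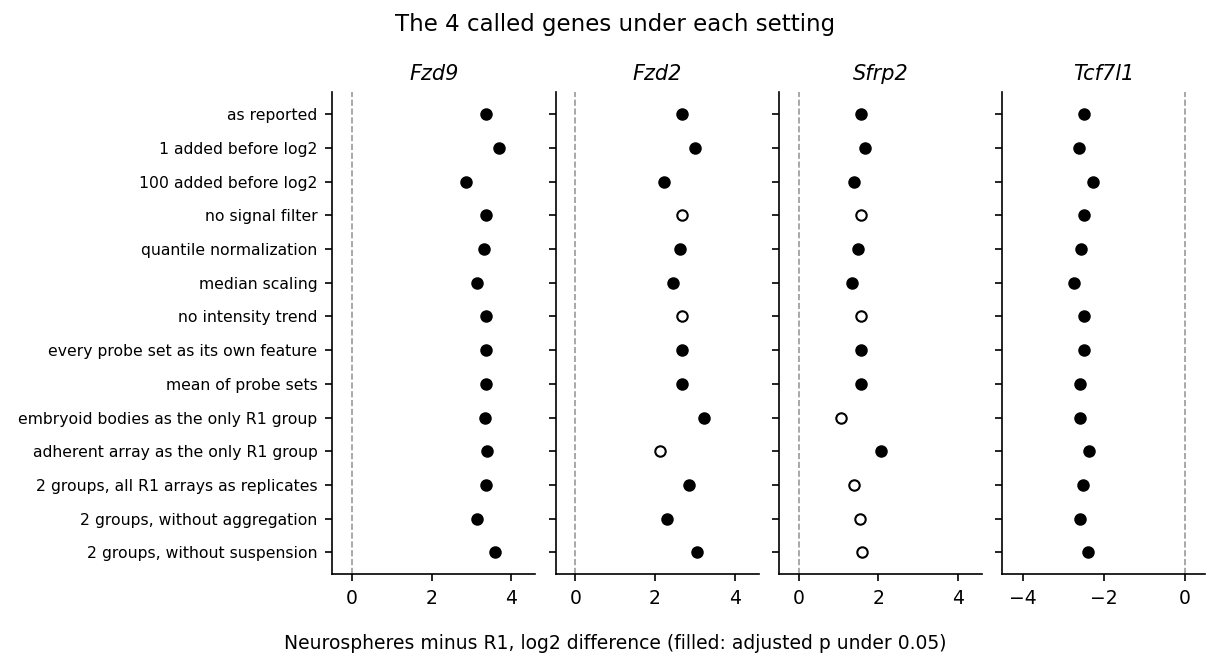
Neurospheres minus R1 in log2 units for the 4 called genes under each processing setting, filled where the limma adjusted p was under 0.05. Fzd9 (2.87 to 3.69) and Tcf7l1 (-2.73 to -2.26) were called in every setting shown, while Fzd2 and Sfrp2 lost their call in some.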

How the data were processed

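Total RNA was measured on 4 Affymetrix MG_U74Av2 arrays. Both embryoid body arrays carry one sample identifier, and nothing says that they are separate cultures. The deposited values are linear MAS5 signal intensity per probe set, which the authors made with MAS5 per the submitters' processing notes. Its version and scaling target are not stated there. The chip type is given per the file headers. No detection calls were used.

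Of 12488 probe sets, 66 were controls, 10833 had 1 gene in the platform annotation, 396 several and 1193 none. All 10 members were found in the RefSeq gene table by gene identifier. Arrays were brought to a common trimmed mean of 500 over non-control probe sets (2% left out at each end), and 32 was added before log2. Probe sets reaching the array median on at least 1 array were kept (8031), and the one with the highest mean log2 value stood for its gene, giving 6843 features.

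limma 3.58.1 (R 4.3.3) was fitted to all 4 arrays in 3 groups with an intensity trend. The pair of embryoid body arrays supplied the 1 residual degree of freedom and the prior 17.3, so the single arrays were assumed to vary like them. The contrasts were neurospheres minus the average of the R1 culture forms (embryoid body mean, adherent) and embryoid bodies minus adherent cells. Two-sided p-values were Benjamini-Hochberg adjusted across the 6843 features, and 0.05 was the threshold. The code was tested on simulated data. The 4 arrays limit the precision, and no depth applies to array intensity.

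The members, gene lists and tests were chosen with earlier results of these data known. Named genes were all members, every gene of the Wnt lists called in either comparison, the 2 brightest tested genes of a Wnt list with no call, the 3 nearest profiles of each member and the 2 brightest of each marker list. Other genes (Sparcl1, Gfap, Vim, Msi1, Pax6, Stmn2, Axin2, Wnt3, Wnt3a, Wnt6 and Ndp) were named after their values were seen. Alternatives covered the added value, the signal filter, scaling, the variance model, probe sets per gene, the R1 arrays compared and leaving out an embryoid body array.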

Additional observations from a re-analysis of the deposited data

How the results depend on the processing

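Fzd9 and Tcf7l1 kept their calls and directions under every alternative run with a test. Fzd2 lost its call with no signal filter (limma adjusted p = 0.0596), no intensity trend (0.0845) and the adherent array alone, and Sfrp2 with no filter (0.0575), no trend (0.0800), embryoid bodies alone, 2 groups (1.40, adjusted p = 0.101) and either embryoid body array left out. Without the trend, 219 features were higher in neurospheres and 245 lower, against 561 and 816 as reported, and 3 and 5 other Wnt genes against 9 and 9. Median scaling gave 480 higher and 1204 lower, moving the median of all features to -0.14, against 0.10. Fits of 2 groups without 1 embryoid body array gave 269 to 329 higher and 400 to 451 lower; they hold fewer arrays.

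Between embryoid bodies and adherent cells the 24 features called became 0 without a filter (unadjusted p under 0.05 in 693 higher and 416 lower ones), 0 without the trend (476 and 232), 15 with quantile normalization, 403 with median scaling and 2 with the mean of probe sets, and 9 Wnt list genes were called with median scaling, against 0, where the median of all features was -0.25. Directions turned for differences never called: by quantile normalization Fzd7 (-0.11) and Fzd9 (-0.31), and by median scaling Fzd3 (-0.070), Fzd7 (-0.31), Fzd9 (-0.25) and Tcf7l1 (-0.14). Left-out arrays turned Fzd7 (-0.24 without aggregation) and Fzd9 (-0.41 without suspension). In neurospheres against R1, Fzd7 turned by median scaling (-0.10) and Wnt1 against embryoid bodies alone (-0.092). Other causes were not tested. No paired analysis was possible, since the neurosphere and adherent groups had 1 array each. Without 1 embryoid body array, the culture form comparison has no residual degree of freedom and gives values only. Low signals near the 10th percentile limit Fzd2 in aggregation, the weaker probe sets and all fold changes against them.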
